A study of Mus musculus with 4 samples.

Results

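The respiratory chain genes of the ascites cells were read in 4 single-cell libraries, apart for the genes encoded in the nucleus and those encoded in mitochondrial DNA. Members were taken by symbol: those starting Ndufa, Ndufb, Ndufc, Ndufs, Ndufv, Uqcr, Cox4 to Cox8, Atp5 or Sdh, and the mitochondrial symbols mt-Nd, mt-Co, mt-Cytb and mt-Atp. This rule used no measured value and found 113 of the 29835 genes in the tables, 100 nuclear and 13 mitochondrial, of which 110 were in every library's table. Among the nuclear genes, 38 encode subunits of complex I, 4 of complex II, 8 of complex III, 20 of complex IV and 17 of complex V, 8 are complex I assembly factors (the Ndufaf genes), 4 are complex II assembly factors (the Sdhaf genes) and 1 is a pseudogene, Cox5b-ps. The tables use older symbols for the ATP synthase, such as Atp5g1, Atp5g2 and Atp5g3 for the c-ring genes now called Atp5mc1, Atp5mc2 and Atp5mc3. Ndufa4 and its paralogue Ndufa4l2 carry a complex I name but were counted with complex IV, where the Ndufa4 protein is found.

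The respiratory chain passes electrons from NADH (complex I) and succinate (complex II) through complex III to oxygen at complex IV, and complex V uses the proton gradient that results to make ATP. Complexes I, III, IV and V are each built from nuclear and mitochondrial gene products, whereas complex II, which is also the succinate dehydrogenase of the citrate cycle, is entirely nuclear. The mitochondrial genes are transcribed as long polycistronic RNAs and cut apart afterwards, so that their levels are set by a machinery separate from that of the nuclear genes.

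All 4 groups were C57BL/6 mice, female and a few weeks old at injection, that carried intraperitoneal ID8-Trp53-/- cells, a single mouse ovarian surface epithelial line without Trp53 that also held an infrared fluorescent label, and that were treated from 7 days after engraftment, 2 times a week, until the ascites reached about 3 mL. Control mice received DMSO and an IgG2a isotype antibody (100 ng per dose by the labels), the BTYNB group received BTYNB, a small-molecule inhibitor of the mRNA-binding protein IGF2BP1 (50 mg/kg by the labels), with the isotype antibody, the anti-PD-1 group received DMSO and the PD-1 blocking antibody RMP1-14 (100 ng per dose by the labels), and the combination group received BTYNB and anti-PD-1. The study's methods give other amounts for both agents. Ascites cells of all animals of a group were pooled before capture, so that each group was 1 library, no value had a replicate check and no test between conditions was possible. All intervals are 95% intervals; those of levels, ratios and shares cover counting error only, and those of medians cover the spread over genes, and "higher" and "lower" describe these libraries.

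In the order control, BTYNB, anti-PD-1 and combination, the tables had 7858, 19247, 12163 and 7074 cells, with totals of 78603888 to 114600397 unique molecular identifiers (UMIs, which count captured transcripts). The smallest deposited cell differed between the tables, with 4438, 869, 3533 and 5115 UMIs, and pairs of libraries shared at most 4 cell barcodes. Cells with fewer than 200 genes or over 33% of UMIs from mitochondrial genes were removed. Classes were set by marker UMIs, and 7114, 3606, 10923 and 4369 tumour cells (keratins and Wt1, no Ptprc) and 292, 3134, 384 and 1258 myeloid cells (Lyz2 and Csf1r) were kept in the order above. The tumour label was checked with 4 further genes, Msln, Upk3b, Upk1b and Muc16, which summed to 808 to 1057 UMIs per 1000000 UMIs of the class (CPM) in tumour cells and 27.9 to 120 CPM in myeloid cells. For T cells (Cd3 genes) and B cells (Cd79 genes) the data went against the labels in control and anti-PD-1, which had only 22 to 39 such cells, with tumour markers at 842 to 1393 CPM, and these were not compared. The T and B cells of the other libraries numbered 2481 and 3475 in BTYNB and 158 and 286 in the combination, and their tumour markers stood at 221 and 552 CPM in BTYNB and 493 and 803 CPM in the combination. Against tumour cells, they are therefore given as cells that met a single class rule and held at most 2 keratin UMIs, which left 2221 T and 3030 B cells in BTYNB (tumour markers at 68.9 and 76.5 CPM) and 52 and 64 in the combination (86.6 and 115 CPM).

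Over cells of all depths, Sdhb and Ndufa4 were lower in each treated library than in control, in both tumour and myeloid cells. The level of Cox7a1 separated the classes. Promoter sequences are shown for these 3 nuclear members, which recur below. Each runs from 250 bases before to 50 bases after the RefSeq start on GRCm38.p6, not the build GRCm39 of the deposited tables, 5′ to 3′ on the strand of the gene, with capitals marking matches on either strand to the NRF1 motif GCATGCGC, the ETS motif CCGGAAG, the SP1 motif GGGCGG or the YY1 motif AAGATGGC, factors known to act at respiratory chain promoters.
Sdhb, chr4:140961021-140961320, plus strand: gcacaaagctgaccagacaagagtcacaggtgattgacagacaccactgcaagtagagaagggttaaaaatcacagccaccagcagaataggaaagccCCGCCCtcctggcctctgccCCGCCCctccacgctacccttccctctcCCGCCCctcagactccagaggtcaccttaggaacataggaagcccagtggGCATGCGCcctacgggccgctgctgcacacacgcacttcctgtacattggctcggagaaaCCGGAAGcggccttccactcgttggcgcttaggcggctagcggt
Ndufa4, chr6:11907401-11907700, minus strand: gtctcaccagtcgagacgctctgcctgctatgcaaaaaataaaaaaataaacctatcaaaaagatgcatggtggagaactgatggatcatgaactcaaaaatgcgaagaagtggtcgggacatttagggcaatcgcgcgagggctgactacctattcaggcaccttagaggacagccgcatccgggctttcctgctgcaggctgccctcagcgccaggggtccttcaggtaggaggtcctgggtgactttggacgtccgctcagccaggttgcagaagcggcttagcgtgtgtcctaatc
Cox7a1, chr7:30183921-30184220, plus strand: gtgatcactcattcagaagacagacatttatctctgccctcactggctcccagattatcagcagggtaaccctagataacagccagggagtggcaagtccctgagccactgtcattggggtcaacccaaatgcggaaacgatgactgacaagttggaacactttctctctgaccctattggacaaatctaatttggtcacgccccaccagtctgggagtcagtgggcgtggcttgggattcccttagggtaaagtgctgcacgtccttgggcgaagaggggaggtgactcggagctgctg
The Sdhb window held 1 NRF1, 1 ETS and 3 SP1 matches and no YY1 match, whereas the other windows held none of these letters. Of the 100 nuclear members, 81 had a promoter in the reference. An NRF1 match was found in 12 of them (14.8%) against 3.05% of 27025 genes with promoters, an ETS match in 22 (27.2%) against 9.93%, a YY1 match in 11 (13.6%) against 3.19% and an SP1 match in 39 (48.1%) against 38.2%. These are letter matches and were not tested as binding sites.

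In tumour cells, the summed level of the nuclear members was 21842 CPM for control, 20973 for BTYNB, 20910 for anti-PD-1 and 23192 for both agents. Over cells of all depths it was lower with either single agent than in control and highest with both, while in the bins of 12000 to 20000 and 20000 to 40000 UMIs per cell control was the highest of the libraries measured there. The summed level of the 13 mitochondrial genes was 112654, 124237, 120173 and 117069 CPM in the same order. Over cells of all depths it was thus higher in every treated library than in control and highest in BTYNB. The mitochondrial UMIs per nuclear UMI, also over cells of all depths, thus stood at 5.16, 5.92, 5.75 and 5.05.

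**Figure D1:**
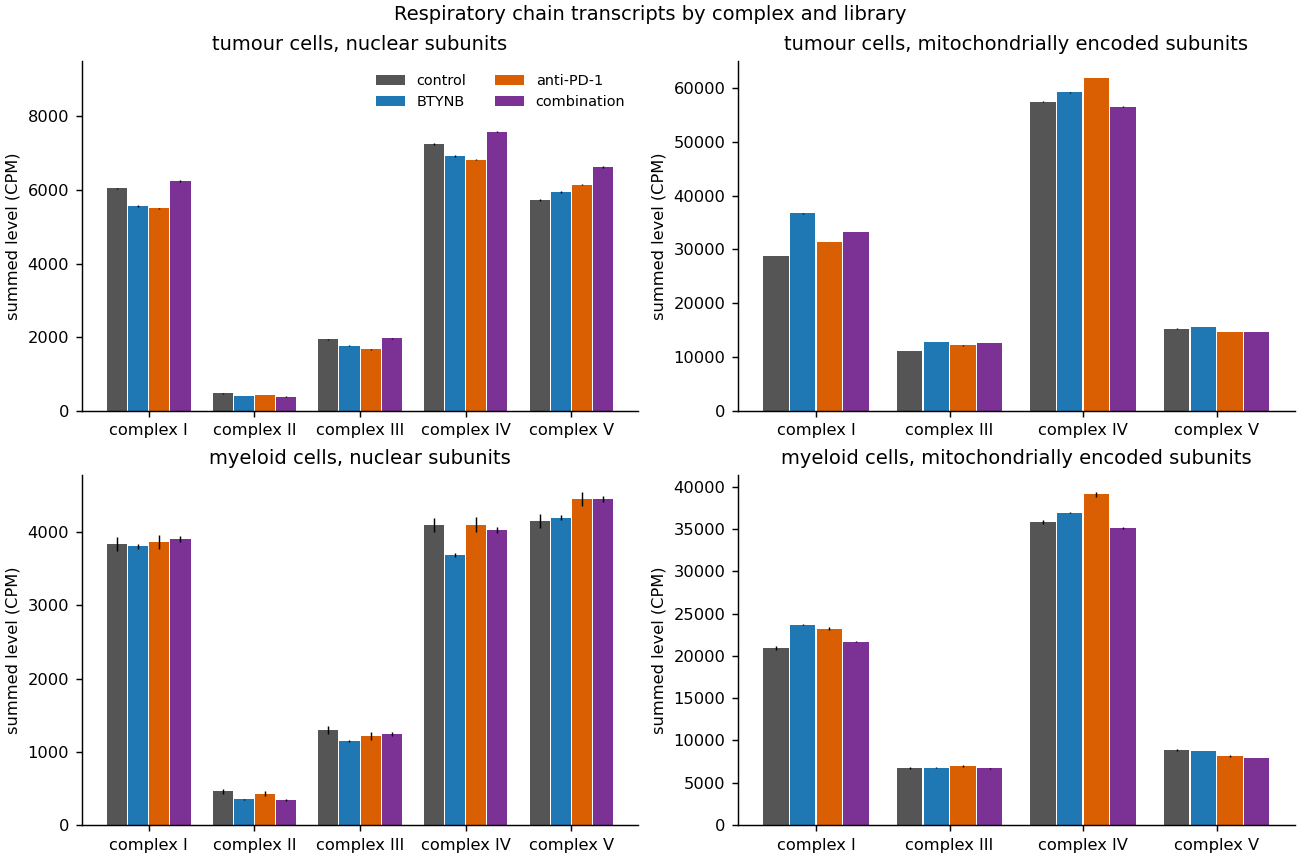
Summed level in CPM of nuclear (left) and mitochondrial (right) subunits of each complex in tumour (top) and myeloid (bottom) cells, 1 bar per library, with exact Poisson 95% intervals as error bars and assembly factors left out. Within a complex, libraries can be compared; in tumour cells nuclear complex I is 6042 CPM in control against 5566 in BTYNB and 5496 in anti-PD-1, while mitochondrial complex I is 28809 against 36704 and 31431.

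Complexes differed in which way they stood. Nuclear complex I, the NADH dehydrogenase, was at 6042, 5566, 5496 and 6237 CPM in control, BTYNB, anti-PD-1 and the combination, and nuclear complex III, the cytochrome bc1 complex, at 1948, 1766, 1670 and 1969 CPM. Over cells of all depths, both were lower with the single agents than in control and higher in the combination. Complex II followed another order, with 473, 408, 426 and 385 CPM, lowest in the combination. Nuclear complex IV, the cytochrome c oxidase, was at 7245, 6921, 6821 and 7584 CPM. Complex V, the ATP synthase, was at 5728, 5946, 6144 and 6628 CPM and was the only complex whose nuclear sum was above control in all treated libraries. Assembly factors of complex I were at 247, 223, 209 and 235 CPM, and those of complex II at 157, 142, 143 and 153 CPM.

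Single genes were compared as the log2 ratio of CPM with 1 CPM added to both, for genes with at least 100 UMIs over the pair of libraries. A ratio of 0.25 or more in size served as a call, and all 4 comparisons share libraries with each other. In BTYNB against control, the median log2 ratio of the 93 nuclear members measured was −0.09 (−0.14 to −0.05), against 0.01 over all 13866 genes. Of these, 4 were at least 0.25 higher and 21 at least 0.25 lower, next to 19.0% and 16.8% of all genes, and 28 were above 0, where 51.1% of all genes were. In anti-PD-1 against control, the nuclear median was −0.11 (−0.18 to −0.06), or −0.036 with median-of-ratios scaling, against −0.06 over all genes on the CPM scale, with 9 members higher and 27 lower, next to 15.8% and 22.3% of all genes, and 27 were above 0, where 40.7% of all genes were.

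Adding BTYNB to anti-PD-1 went with the opposite sign: combination against anti-PD-1 had a nuclear median of 0.13 (0.08 to 0.18), or 0.065 with median-of-ratios scaling, against 0.06 over all genes on the CPM scale, with 22 of 93 members higher and 3 lower, next to 23.7% and 15.3% of all genes. In combination against BTYNB the nuclear median was 0.12 (0.06 to 0.15), against −0.01 over all genes, with 15 higher and 1 lower, next to 6.89% and 4.69% of all genes. Of the 93 nuclear members, 70 and 71 were above 0 in these 2 comparisons, where 58.3% and 46.7% of all genes were. The medians of complex I were −0.11, −0.20, 0.17 and 0.14 over the comparisons in this order, those of complex III −0.05, −0.16, 0.19 and 0.14, those of complex IV 0.00, −0.05, 0.08 and 0.12, and those of complex V 0.03, −0.02, 0.10 and 0.12. Those of the complex I assembly factors were −0.16, −0.17, 0.11 and 0.02.

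Few members differed by 0.5 or more. In BTYNB against control, 0 of 93 nuclear members were that much higher and 1 lower, next to 5.5% and 4.6% of all genes, and in anti-PD-1 against control 2 were higher and 6 lower, next to 6.72% and 4.85%. In combination against anti-PD-1 there was 1 each way, next to 6.85% and 6.34%, and in combination against BTYNB none, next to 0.694% and 0.321%. The 13 mitochondrial genes had 1 such value in the 4 comparisons, mt-Atp8 in BTYNB against control.

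**Figure D2:**
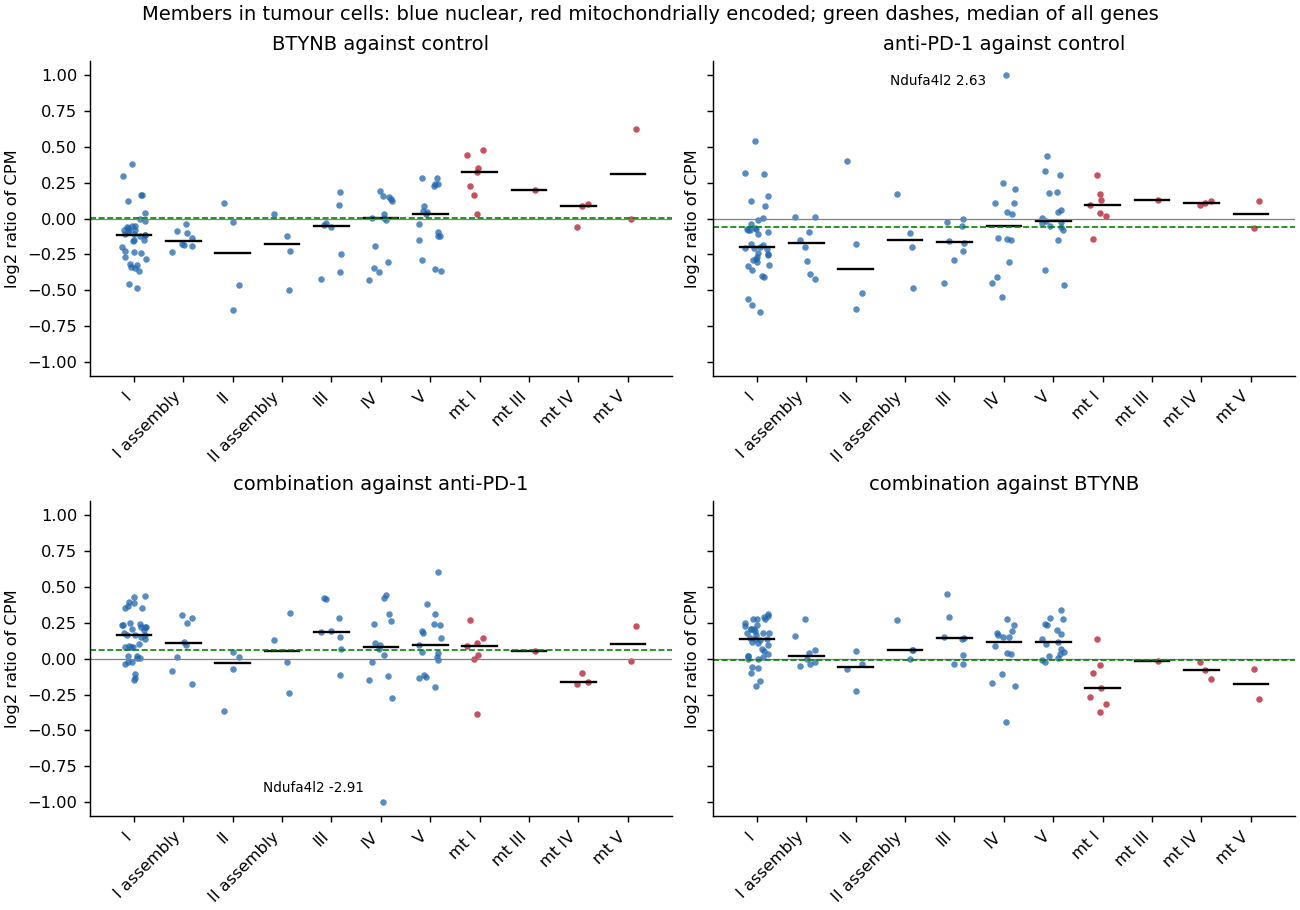
Log2 ratio of CPM in tumour cells for each member with at least 100 UMIs, by complex, in the 4 comparisons; black bars are medians, the green dashed line is the median of all genes, and Ndufa4l2 is drawn at the edge of the axis with its value written beside it where it lies beyond. Nuclear complex I lies mostly below 0 against control (medians −0.11 and −0.20) and mostly above 0 for the combination (0.17 and 0.14), and mitochondrial complex I genes lie highest in BTYNB against control.

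The ratio for the nuclear members was an average over genes that differed among themselves. Below control by 0.25 or more in all 3 treated libraries were 10 of 94 nuclear members in tumour cells, next to 6.04% of all genes, and above by as much were 4, next to 4.38%. Named here after their values were seen, the lower ones were Ndufv1, Ndufb10 and Ndufc2 of complex I, Sdhb and Sdhc of complex II, Uqcrb of complex III, Cox4i1 and Ndufa4 of complex IV, and Atp5c1 and Atp5pb of complex V, and the higher ones were Ndufa2 and Ndufv3 of complex I and Atp5g3 and Atp5l of complex V. No mitochondrial gene was in either set.

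Complex II showed the contrast within 1 complex. Sdhb, the iron-sulphur subunit, was at 81.3 CPM in control and at 51.8, 52.1 and 53.9 CPM in BTYNB, anti-PD-1 and the combination. Its intervals, at most 83.4 CPM at the top of control and at least 79.3 at the bottom, did not overlap those of the treated libraries, whose highest bound was 55.9 CPM. The log2 ratio was −0.64 (−0.71 to −0.59) with BTYNB and −0.63 (−0.70 to −0.59) with anti-PD-1 against control, and 0.05 (−0.02 to 0.12) and 0.06 (−0.02 to 0.13) for the combination against anti-PD-1 and BTYNB.
Sdhc, a membrane anchor, gave the same picture with 161, 116, 112 and 113 CPM and ratios of −0.46 (−0.51 to −0.42) and −0.52 (−0.56 to −0.48) against control.
Sdhd, the other membrane anchor, did not. It was at 131, 141, 173 and 134 CPM, so that anti-PD-1 stood highest, with a ratio of 0.40 (0.37 to 0.44) against control and −0.37 (−0.41 to −0.33) for the combination against anti-PD-1. Sdha, the flavoprotein subunit that oxidises succinate, was at 100.3, 98.7, 88.4 and 84.2 CPM, with ratios of −0.02 (−0.07 to 0.03) with BTYNB and −0.18 (−0.23 to −0.14) with anti-PD-1 against control. Of the complex II assembly factors, Sdhaf3 was lowest in BTYNB against control at −0.50 (−0.67 to −0.39), with 16.5 against 11.4 CPM.

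**Figure D3:**
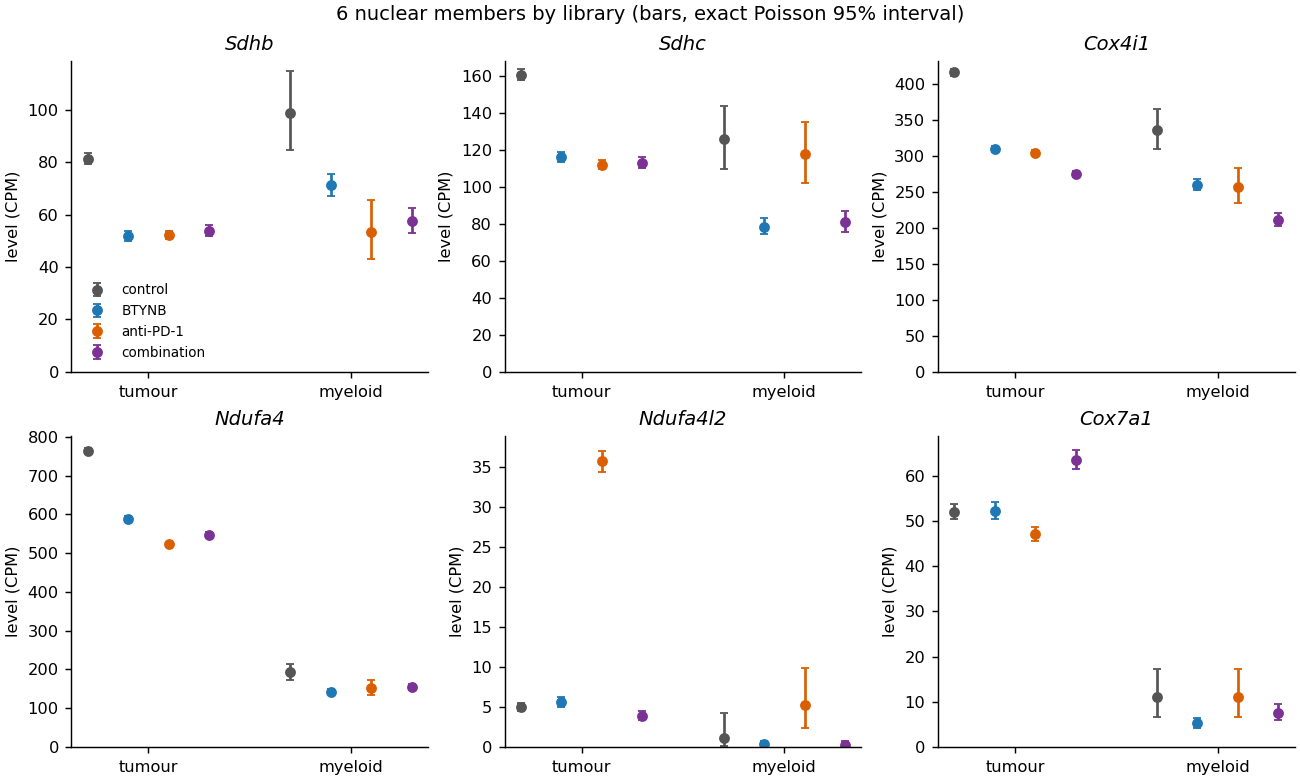
Level in CPM of 6 nuclear members in tumour (left) and myeloid (right) cells, 1 point per library with its exact Poisson 95% interval. Sdhb is 81.3 CPM in control tumour cells against 51.8 to 53.9 in the treated ones, Ndufa4l2 stands apart in anti-PD-1 tumour cells at 35.8 CPM, and Ndufa4 and Cox7a1 are lower in myeloid than in tumour cells in each library.

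In complex I, the lowest member against control was Ndufv1, which carries the NADH-binding site, at 70.0 CPM in control and 49.8, 44.1 and 44.6 CPM in the treated libraries. Its ratio was −0.48 (−0.56 to −0.43) with BTYNB and −0.65 (−0.73 to −0.61) with anti-PD-1. The accessory subunit Ndufb10 was at 157, 114, 103 and 110 CPM, with ratios of −0.45 (−0.50 to −0.41) and −0.60 (−0.65 to −0.56). Both were thus lower in the 3 treated libraries, which stood close to each other.
Ndufa11, another accessory subunit, was at 41.8, 35.6, 28.0 and 36.1 CPM and passed 0.5 in size only for anti-PD-1, at −0.56 (−0.66 to −0.50). The highest member was Ndufa2, an accessory subunit with a thioredoxin-like fold, at 171, 223, 249 and 245 CPM, with ratios of 0.38 (0.35 to 0.42) and 0.54 (0.51 to 0.58). Complex I assembly factors ranged from −0.23 (Ndufaf3) to −0.04 (Ndufaf6) in BTYNB against control, and from −0.42 (Ndufaf8) to 0.01 (Ndufaf5) in anti-PD-1 against control. For the combination against anti-PD-1, the highest and lowest complex I members were Ndufc1 (0.44) and Ndufb8 (−0.15), and against BTYNB Ndufa12 (0.31) and Ndufb8 (−0.19).

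In complex III, Uqcrb, a small subunit at the ubiquinone site, was lowest against control, at 365 CPM in control and 273, 267 and 304 CPM in the treated libraries, with ratios of −0.42 (−0.45 to −0.39) with BTYNB and −0.45 (−0.48 to −0.43) with anti-PD-1. Uqcr11, another small subunit, stood apart in the combination instead, at 220, 213, 216 and 291 CPM. Its ratio was 0.43 (0.40 to 0.46) against anti-PD-1 and 0.45 (0.42 to 0.49) against BTYNB. The core subunit gene Uqcrc1 was the highest of the complex against control, at 0.19 for BTYNB and −0.00 for anti-PD-1.

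Complex IV has subunits with tissue-restricted paralogues, and these were measured as pairs. Cox4i1, the ubiquitous form of the first nuclear subunit, was at 416 CPM in control and 310, 305 and 275 CPM in the treated libraries, so that no treated library overlapped control. Its ratio was −0.43 (−0.45 to −0.40) with BTYNB and −0.45 (−0.48 to −0.43) with anti-PD-1 against control, and the combination was lower again, at −0.15 (−0.18 to −0.12) against anti-PD-1 and −0.17 (−0.20 to −0.14) against BTYNB. Its paralogue Cox4i2, known from lung and from low oxygen, was at most at 0.537 CPM in any library.
Ndufa4 was at 764, 588, 522 and 548 CPM, with ratios of −0.38 (−0.40 to −0.36) and −0.55 (−0.57 to −0.53) against control. Ndufa4l2, the paralogue known as a hypoxia-inducible gene, was at 4.95, 5.65 and 3.89 CPM in control, BTYNB and the combination, and at 35.8 CPM (34.5 to 37.1) in anti-PD-1. This was the largest difference of any member in tumour cells. The log2 ratio was 2.63 in anti-PD-1 against control and −2.91 in the combination against anti-PD-1, both on the scale with 1 CPM added, which understates low genes; without it, the intervals were 2.70 to 3.01 and −3.41 to −3.00. As a share of the UMIs of the pair in cells that met 1 class rule, Ndufa4l2 was 0.645% (0.581 to 0.714) for control, 0.967% (0.862 to 1.08) for BTYNB, 6.42% (6.19 to 6.64) for anti-PD-1 and 0.677% (0.587 to 0.777) for the combination. The lower Ndufa4 level was shared by all treated libraries, whereas the higher Ndufa4l2 level was in anti-PD-1.

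Cox7a1, the heart and muscle form of subunit 7a, was at 52.1, 52.3, 47.1 and 63.6 CPM in tumour cells, next to 292, 236, 263 and 242 CPM of the liver form Cox7a2. In the combination, Cox7a1 was 0.42 (0.37 to 0.50) above anti-PD-1 and 0.28 (0.21 to 0.35) above BTYNB. In cells that met 1 class rule, Cox7a1 made up 15.2%, 17.9%, 15.2% and 20.7% of the UMIs of the pair. Cox8a, whose paralogue Cox8b had at most 1 UMI in the tumour cells of a library, was at 1439, 1581, 1549 and 1862 CPM, highest in the combination, and Cox6c at 1313, 1036, 990 and 1174 CPM, highest in control. Cox5b, which encodes subunit 5b, was at 148, 148, 120 and 164 CPM and was the highest complex IV member in combination against anti-PD-1, at 0.45 (0.41 to 0.49).

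In complex V, Atp5c1, the gamma subunit of the rotor, was lowest against control, with 261, 202, 189 and 209 CPM and ratios of −0.37 (−0.40 to −0.34) and −0.47 (−0.50 to −0.44). Atp5l, the g subunit of the membrane part, was higher in every treated library than in control, at 338, 413, 426 and 488 CPM. Atp5k, the e subunit that takes part in dimer formation, was at 274, 324, 269 and 410 CPM. In the combination, Atp5k was above anti-PD-1 by 0.61 (0.58 to 0.64), the highest value of any member in that comparison, and above BTYNB by 0.34 (0.31 to 0.37).
Of the 3 genes that encode the same mature c-ring protein, Atp5g1 was at 17.0%, 17.3%, 15.2% and 18.0% of their summed UMIs in cells that met 1 rule, Atp5g2 at 45.1%, 42.0%, 47.9% and 44.6%, and Atp5g3 at 38.0%, 40.8%, 36.9% and 37.4%. Atp5g2 had its highest level in anti-PD-1, at 1160 CPM against 857 in control, a ratio of 0.44 (0.42 to 0.45).

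The mitochondrial genes went the other way in BTYNB. Their median log2 ratio against control in tumour cells was 0.20 (0.03 to 0.44), with 11 of 13 above 0 and 5 at least 0.25 higher, next to 51.1% and 19.0% of all genes. Complex I genes stood highest: mt-Nd5 was at 3475 CPM in control and 4850 in BTYNB, mt-Nd2 at 4609 and 6272, mt-Nd4 at 8179 and 10450, and mt-Nd1 at 7229 and 9071. Their ratios were 0.48 (0.47 to 0.49), 0.44 (0.44 to 0.45), 0.35 (0.35 to 0.36) and 0.33 (0.32 to 0.33). The other complex I genes were less far from control, with 0.23 for mt-Nd4l, 0.17 for mt-Nd3 and 0.03 (−0.05 to 0.11) for mt-Nd6, the 1 gene of the set encoded on the opposite strand.
The cytochrome b gene mt-Cytb was at 11102 CPM in control and 12767 in BTYNB (0.20). Over cells of all depths, the cytochrome c oxidase genes stood near control, at 0.09 for mt-Co1, −0.06 for mt-Co2 and 0.10 for mt-Co3. Of the ATP synthase genes, mt-Atp6 was at 14773 and 14730 CPM, while mt-Atp8 was at 518 and 800 CPM, a ratio of 0.63 (0.61 to 0.65). These last genes overlap on 1 transcript, as mt-Nd4l and mt-Nd4 do, so that a read can be given to either, and mt-Nd5 and mt-Nd6 lie on opposite strands whose treatment in the counting was not given in the sources used here.

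In anti-PD-1 against control the mitochondrial median was 0.11 (0.02 to 0.13), and 1 gene was at least 0.25 higher (15.8% of all genes), mt-Nd3 at 0.30, with 3340 CPM in control and 4118 in anti-PD-1. mt-Nd4l was at −0.14, mt-Nd5 at 0.02 (0.01 to 0.03) and mt-Atp6 at −0.06. In combination against BTYNB the median was −0.10 (−0.28 to −0.02), with 1 gene above 0 and 4 at least 0.25 lower, next to 46.7% and 4.69% of all genes: mt-Nd6 at −0.38 (−0.48 to −0.29), mt-Nd5 at −0.31 (−0.32 to −0.30), mt-Atp8 at −0.28 (−0.30 to −0.26) and mt-Nd2 at −0.26. In combination against anti-PD-1 it was 0.02 (−0.16 to 0.15), with mt-Nd4l highest at 0.27 and mt-Nd6 lowest at −0.38 (−0.48 to −0.31). mt-Nd6 was at 38.7, 39.6 and 39.8 CPM in control, BTYNB and anti-PD-1 and at 30.3 CPM (28.9 to 31.8) in the combination.

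**Figure D4:**
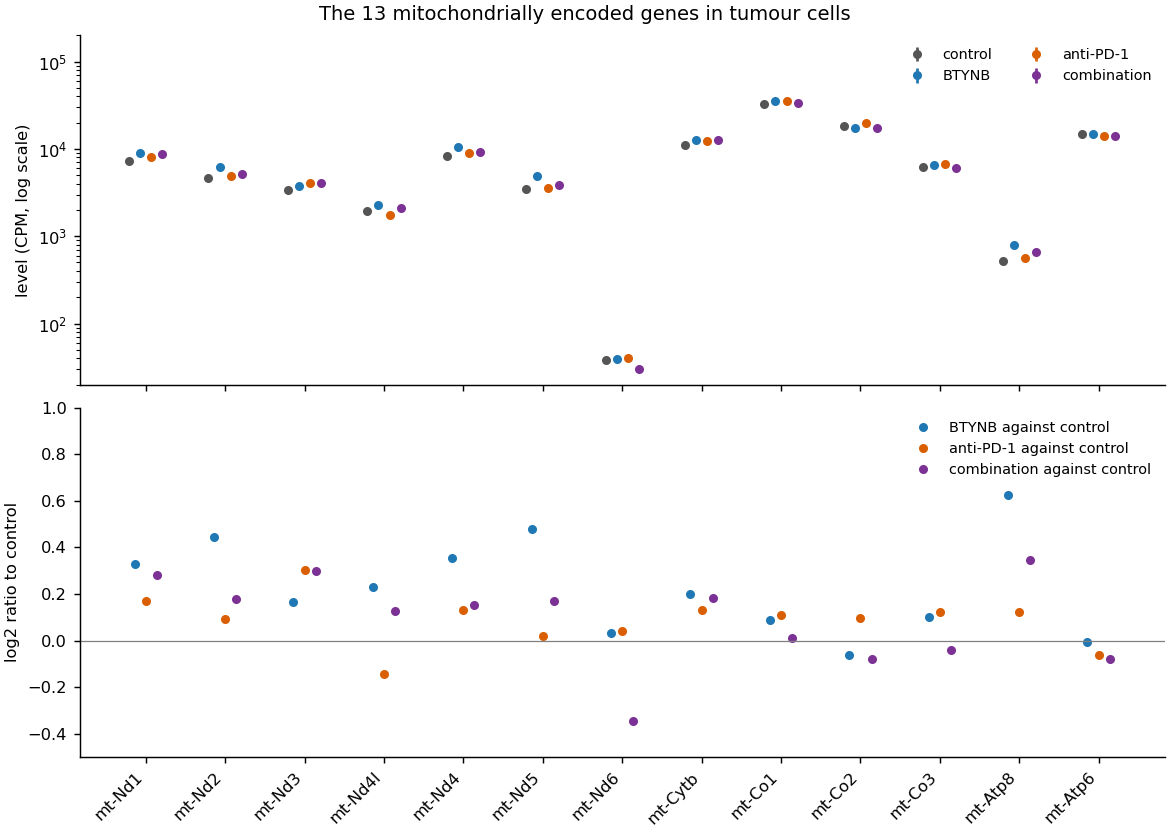
The 13 mitochondrial genes in tumour cells in the order of the complexes: top, level in CPM on a log scale in each library; bottom, log2 ratio of each treated library to control. mt-Atp8 (0.63), mt-Nd5 (0.48) and mt-Nd2 (0.44) are highest in BTYNB, and mt-Nd6 is below control in the combination.

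The split between mitochondrial complexes shows in the ratio to their nuclear partners. Mitochondrial UMIs per nuclear UMI of complex I were 4.77 for control, 6.59 for BTYNB, 5.72 for anti-PD-1 and 5.33 for the combination. Those of complex III were 5.70, 7.23, 7.29 and 6.41, and those of complex IV 7.93, 8.56, 9.07 and 7.45. Complex V had 2.67, 2.61, 2.39 and 2.21, lower in all treated libraries than in control, where complexes I and III were higher. All these ratios are over cells of all depths. From 8000 to 12000 UMIs per cell, anti-PD-1 held 112866 mitochondrial and 21510 nuclear CPM, against 118066 and 21310 CPM in control. The ratio of anti-PD-1 over all members was thus not above control in that bin.

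Levels of the members also moved with the number of UMIs per cell, and the libraries differed in depth: tumour cells held a median of 9783, 15221, 7160 and 11503 UMIs. In control tumour cells, the nuclear sum was 19478 CPM in cells of 5115 to 8000 UMIs and 24234 CPM in cells of 20000 to 40000, while the mitochondrial sum was 123269 and 91003 CPM. Within equal bins of UMIs, the nuclear sum of BTYNB stayed below control, at 18777 against 19478 CPM from 5115 to 8000 UMIs, 19290 against 21310 from 8000 to 12000, 20017 against 23145 from 12000 to 20000 and 21856 against 24234 from 20000 to 40000. The anti-PD-1 library did not keep to one side, with 20743, 21510 and 21169 CPM in the first 3 bins, above control in the first 2 and below it in the third. Nor did the combination, which was above control in the first 2 bins, with 22885 and 23575 CPM, and below it in the deeper ones, with 22983 against 23145 and 23103 against 24234 CPM.
The mitochondrial sum of BTYNB was above control in each of these bins, from 135437 against 123269 CPM in the lowest to 119713 against 91003 in the highest. That of the combination was also above control in each bin, at 145870, 128378, 111550 and 100737 CPM, and was above BTYNB in the lowest. For anti-PD-1 the mitochondrial sum was 129282, 112866 and 97187 CPM against 123269, 118066 and 106052 in control, and the median of the mitochondrial genes with bins weighted equally was −0.02, so that the sign of 0.11 was not kept.

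**Figure D5:**
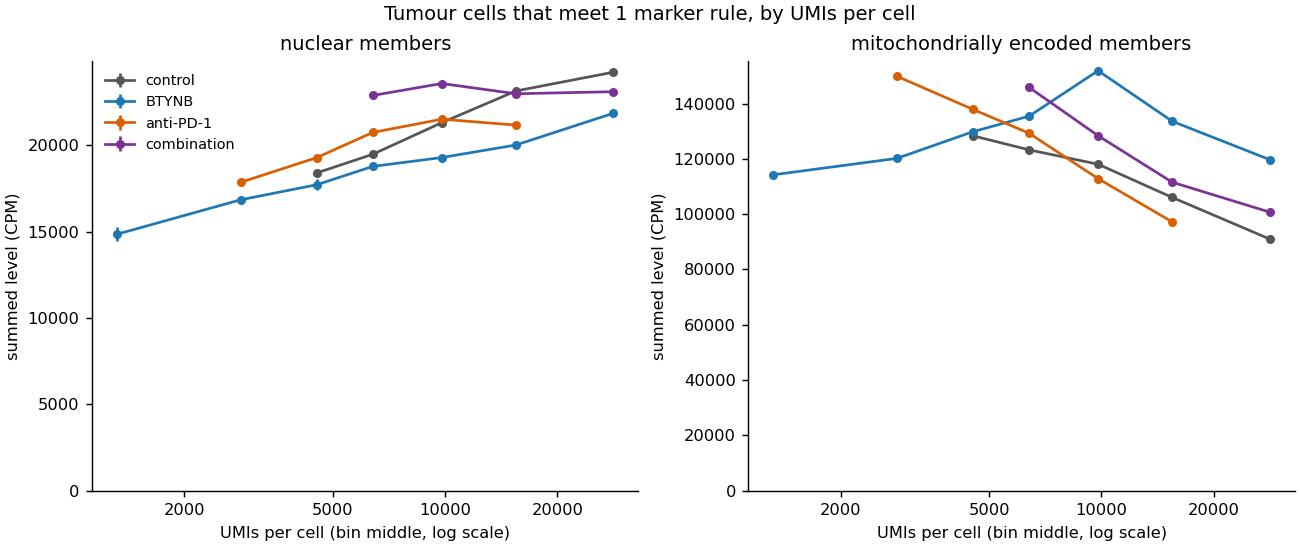
Summed level in CPM of nuclear (left) and mitochondrial (right) members in tumour cells that met 1 class rule, by UMIs per cell on a log axis, 1 line per library with exact Poisson 95% intervals, most of them smaller than the points. The BTYNB line lies below control on the left (18777 against 19478 CPM from 5115 to 8000 UMIs) and above it on the right (135437 against 123269 CPM) in the 4 bins from 5115 UMIs.

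Genes named above were also compared at equal depth. From 5115 to 8000 UMIs, Sdhb was at 66.2 CPM in control and 40.5, 51.1 and 50.7 CPM in BTYNB, anti-PD-1 and the combination, and from 12000 to 20000 UMIs at 90.3 against 51.0, 55.3 and 54.9. Cox4i1 was at 379, 408, 439 and 446 CPM in the 4 bins of control and at 280, 292, 305 and 318 in BTYNB. mt-Nd5 was at 4465, 3790, 2897 and 2165 CPM in control and 5942, 6747, 5511 and 4407 in BTYNB, so that it was higher in BTYNB in every bin. mt-Atp6 was at 15602, 15288, 14249 and 12517 CPM in control and 15095, 17039, 15533 and 14368 in BTYNB, below control in the lowest bin and above it in the others. mt-Co1 was at 35781, 34554, 31172 and 26600 CPM in control and 40033, 42758, 38045 and 33394 in BTYNB. It was thus higher in BTYNB in every bin, as mt-Co3 was, while mt-Co2 was below control in the lowest bin and above it in the others.

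The higher Ndufa4l2 of the anti-PD-1 library was compared within that library between tumour cells with and without UMIs of Cd24a, a surface glycoprotein gene. Cd24a was seen with 3 or more UMIs in 2024 of the 10923 anti-PD-1 tumour cells (18.5%), against 4.19%, 4.10% and 3.41% in control, BTYNB and the combination. Ndufa4l2 was at 82.3 CPM (78.3 to 86.4) in those cells, at 36.4 CPM in cells with 1 or 2 UMIs and at 17.2 CPM (16.0 to 18.4) in the 7076 cells with none. In the other libraries Ndufa4l2 was at 5.8, 5.6 and 6.6 CPM with 3 or more Cd24a UMIs and at 4.2, 4.9 and 3.7 CPM with none. The anti-PD-1 cells without Cd24a UMIs were thus above all other libraries too.
Cells with 3 or more Cd24a UMIs were deeper, with a median of 9324 UMIs against 6430, and held 1929 CPM of the glycolytic gene Pgk1 against 397. The sums of the members did not follow Ndufa4l2: the nuclear sum was 19815 against 21120 CPM and the mitochondrial sum 105967 against 124822 CPM. Ndufa4 was at 517 CPM in both. Single nuclear members went both ways, with 32 of 92, Ndufa4l2 included, above 0, next to 4613 of 12530 genes. They included Ndufa2 at 0.48 (0.44 to 0.53), Sdhd at 0.34 (0.29 to 0.40) and Atp5g2 at 0.18 (0.16 to 0.21). No mitochondrial member was above 0. Of 92 nuclear members, 2 were at least 0.5 higher and 11 at least 0.5 lower, next to 12.7% and 30.5% of all genes, and the medians were −0.10 for nuclear and −0.23 for mitochondrial members against −0.19 for all genes. The lowest were Cox7a1 (−0.88), Ndufb4 (−0.87) and Ndufs4 (−0.69), and the highest after Ndufa4l2 (2.20) was Sdhaf3 (0.66).

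Among genes that work with the chain but fall outside the symbol rule, those of glycolysis and hypoxia stood apart in anti-PD-1. The shares of all genes to read these counts against are 19.0% higher and 16.8% lower in BTYNB against control, 15.8% and 22.3% in anti-PD-1 against control, and 15.3% lower in combination against anti-PD-1. Of 19 measured in tumour cells, 16 were at least 0.25 higher than control (median 0.61) and 17 at least 0.25 lower in the combination than in anti-PD-1 (median −0.82), whereas 2 were higher and 3 lower in BTYNB against control (median −0.04). In combination against BTYNB, 8 were at least 0.25 lower (median −0.20), next to 4.69% of all genes. In myeloid cells, 12 of 19 were at least 0.25 higher and 2 lower in anti-PD-1 against control (median 0.34). Of all genes, 17.6% and 26.9% were. In combination against anti-PD-1, 17 were lower and 1 higher there (median −0.80), against 26.4% and 25.4% of all genes. In tumour cells, Pgk1 was at 287, 279, 826 and 261 CPM and Pdk1, the kinase that restrains pyruvate entry to the citrate cycle, at 13.8, 12.9, 34.9 and 9.21 CPM, both highest in anti-PD-1 and lowest in the combination, as Ndufa4l2 was.
The 13 citrate cycle genes had medians of −0.15 and −0.16 against control, with none at least 0.25 higher and 4 lower in each, and 0.01 and −0.05 for the combination against anti-PD-1 and BTYNB. Cycs, the electron carrier cytochrome c, was at 130, 96.8, 133 and 110 CPM and Cyc1, the cytochrome c1 of complex III whose symbol the rule misses, at 86.5, 60.7, 59.3 and 55.4 CPM. Of 24 further assembly factors, 3 were at least 0.25 higher and 7 lower in BTYNB against control (median −0.11), and 2 and 7 in anti-PD-1 (median −0.18), where the copper chaperone Cox17 was the highest, with 59.8 CPM in control and 126 in anti-PD-1. The 19 genes of mitochondrial DNA transcription, translation and biogenesis had medians of −0.05 and −0.02 against control, with 2 higher and 4 lower for BTYNB, 3 higher and 4 lower for anti-PD-1, and their packaging factor Tfam was at 54.6, 44.2, 53.9 and 49.4 CPM. The 14 mitochondrial stress response genes had medians of −0.04 and −0.25 against control, with 2 higher and 4 lower for BTYNB, and 0 higher and 7 lower for anti-PD-1.

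In myeloid cells the same comparisons rested on 292 control and 384 anti-PD-1 cells, so that the intervals were wider. The make-up of the class also differed between libraries: 5 further myeloid genes (Cd68, Adgre1, Itgam, Fcgr1 and C1qa) summed to 3229, 2144, 3478 and 2792 CPM, and the neutrophil genes S100a8 and S100a9 to 387, 1663, 15.7 and 12.1 CPM. The part of these differences in the myeloid results was not tested. Over cells of all depths, the summed nuclear level was 14067, 13394, 14267 and 14185 CPM in control, BTYNB, anti-PD-1 and the combination, and the mitochondrial level 72359, 76153, 77459 and 71358 CPM. The nuclear median was −0.11 (−0.16 to −0.06) in BTYNB against control, with 9 of 91 members at least 0.25 higher and 28 lower, next to 28.0% and 32.4% of all genes. In anti-PD-1 against control it was −0.00 (−0.07 to 0.08), with 11 of 74 higher and 12 lower, next to 17.6% and 26.9%. In combination against anti-PD-1 it was −0.01 (−0.08 to 0.04), with 12 of 87 higher and 15 lower, next to 25.4% and 26.4%, and in combination against BTYNB 0.07 (0.02 to 0.11), with 12 of 92 higher and 5 lower, next to 21.8% and 19.4%. The opposite signs seen with and without the second agent in tumour cells were thus not seen in the myeloid nuclear medians for BTYNB.

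Some single genes differed in the same direction in myeloid cells, a class whose UMIs are counted apart from those of the tumour cells though captured in the same library. Below control by 0.25 or more in all treated libraries were 8 of 92 nuclear members (8.70%), next to 11.2% of all genes, and above were 3 (3.26%), next to 7.96%. Neither share was above that of all genes, and the share of all genes that recurred in both classes is not given here. Sdhb was at 99.0 CPM (84.6 to 115) in control and 71.2 (67.2 to 75.4), 53.4 (43.0 to 65.5) and 57.5 (52.8 to 62.5) in the treated libraries, so that no treated interval overlapped control. Its ratio was −0.47 (−0.71 to −0.23) with BTYNB and −0.88 (−1.27 to −0.52) with anti-PD-1. These values are over cells of all depths. In cells of 4000 to 5115 UMIs that met 1 class rule, Sdhb was at 76.2 CPM in control, 75.6 in BTYNB and 48.3 in anti-PD-1. From 5115 to 8000 UMIs Sdhb was at 114, 66.7 and 72.1 CPM. Cox4i1 was at 336 CPM (310 to 365) in control and 260, 258 and 211 CPM in the treated libraries, also without overlap, and Ndufa4 at 192 CPM (172 to 214) against 143, 153 and 154 CPM, where the upper bound of anti-PD-1, 172.2 CPM, reached the lower bound of control, 171.9 CPM.
Sdhc split by agent instead, at 126 CPM in control and 118 in anti-PD-1 but 78.5 in BTYNB and 81.0 in the combination, with ratios of −0.67 (−0.89 to −0.46) with BTYNB against control, and −0.54 (−0.77 to −0.31) with the combination against anti-PD-1. Cox7a2 was at 202, 130, 161 and 126 CPM, a ratio of −0.63 (−0.80 to −0.47) for BTYNB against control. Atp5g1 was higher in all treated libraries, at 142 CPM in control and 206, 217 and 217 CPM, with 0.53 (0.35 to 0.73) and 0.61 (0.37 to 0.85) for BTYNB and anti-PD-1. In tumour cells Atp5g1 was at 323, 378, 368 and 436 CPM, also lowest in control.

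Further myeloid members also passed 0.5 in size, most of them with wide intervals. In BTYNB against control these were Ndufb1 (0.56, 0.40 to 0.71), Ndufaf8 (0.56, 0.06 to 1.18), Ndufaf7 (−0.71, −1.37 to −0.12), Cox7a1 (−0.94, −1.80 to −0.27) and Cox6b2, the testis form of subunit 6b (0.63, −0.41 to 2.25), whose interval held 0. In anti-PD-1 against control it was Ndufb10 (−0.56, −0.91 to −0.23), in combination against BTYNB Cox6b2 (−0.52, −1.21 to −0.07), and in combination against anti-PD-1 Ndufaf2 (0.68, 0.14 to 1.34), which was at −0.32 in cells of 5115 or more UMIs. Ndufa4l2 had 2, 6, 9 and 2 UMIs in myeloid cells and was not compared; the tumour markers were also highest in the anti-PD-1 myeloid cells, at 120 CPM, and their part in its 9 UMIs was not tested.
The mitochondrial genes had a median of 0.01 (−0.05 to 0.28) in BTYNB against control in myeloid cells. mt-Nd5 was at 2914 CPM in control and 3539, 2753 and 2850 CPM in the treated libraries, with ratios of 0.28 (0.24 to 0.32) with BTYNB against control, and −0.31 (−0.33 to −0.29) with the combination against BTYNB. mt-Atp8 was at 365, 502, 345 and 367 CPM, with 0.46 (0.34 to 0.58) and −0.45 (−0.51 to −0.40) in these comparisons, and mt-Nd2 was at 3653, 4597, 4092 and 3945 CPM. Over cells of all depths, mt-Nd5, mt-Atp8 and mt-Nd2 were highest in BTYNB, as in tumour cells, and mt-Nd3 was at 0.37 (0.30 to 0.43) for anti-PD-1 against control. In cells that met 1 class rule, the mitochondrial sum of BTYNB was 79313 against 73673 CPM in control from 4000 to 5115 UMIs. From 5115 to 8000 UMIs it was 70519 against 70870 CPM, and from 8000 to 12000 UMIs 64437 against 70151 CPM. Values of these single genes by depth are not given here for myeloid cells.

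Between classes, the members were lower in immune than in tumour cells of the same library. In cells that met 1 rule, the nuclear median of myeloid against tumour cells was −0.61, −0.54, −0.46 and −0.61 in control, BTYNB, anti-PD-1 and the combination, against −0.36 or −0.37 for all genes. The mitochondrial median was −0.53, −0.70, −0.58 and −0.65, with all 13 lower in each library. Of 105 members measured in all 4 libraries, 87 were lower in myeloid cells in all of them and 8 higher, next to 53.4% and 25.7% of all genes. At least 2-fold lower in all were 12, next to 18.0% of all genes, and none was 2-fold higher.
Cox7a1 had the lowest median over the libraries, with log2 ratios from −3.06 to −2.02, and was at 3.90% to 6.38% of the Cox7a pair in myeloid cells against 15.2% to 20.7% in tumour cells. Ndufa4l2, with few UMIs in myeloid cells, ranged from −2.51 to −1.44. Ndufa4 ranged from −2.06 to −1.84, Ndufb9 from −1.80 to −1.45, Ndufa7 from −1.71 to −1.35 and Atp5md from −1.62 to −1.40. Cox8a (−1.39 to −1.13) and Cox6c (−1.30 to −1.10) were lower as well. The members higher in myeloid cells were so by less, with Ndufa1 from 0.23 to 0.39, Cox7b from 0.28 to 0.44, Atp5a1 from 0.17 to 0.38 and Sdhb from 0.05 to 0.48. The classes differed in depth, with medians of 4202.5 to 7067 UMIs in myeloid cells, and at 5115 to 8000 UMIs the nuclear sum in BTYNB was 13325 CPM in myeloid against 18777 CPM in tumour cells.

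Lymphocytes were lower again in the BTYNB library, where they were most numerous. The nuclear sum of cells that met 1 rule was 20924 CPM in tumour cells, 13410 in myeloid cells, 10528 in T cells and 8092 in B cells, while the mitochondrial sum was 125064, 75410, 95707 and 89596 CPM. Over cells of all depths, the nuclear and the mitochondrial genes thus ranked the classes differently, with myeloid cells lowest in the second. Under 2000 UMIs, myeloid cells were instead highest in mitochondrial CPM, at 119310 against 114247 in tumour, 98576 in T and 88273 in B cells. From 5115 to 8000 UMIs, myeloid cells were lowest, at 70519 against 135437, 81063 and 82354 CPM. The nuclear median was −0.98 in T and −1.26 in B cells against tumour cells, with 43 and 55 of 92 members at least 2-fold lower, next to 29.0% and 31.7% of all genes. By complex, the medians for T and B cells were −0.99 and −1.39 for complex I, −0.67 and −1.05 for complex II, −1.02 and −1.21 for complex III, −1.33 and −1.70 for complex IV and −0.72 and −1.09 for complex V.
Cox7a1 was at 51.5 CPM in tumour cells and 2.79 and 2.33 CPM in T and B cells, and Ndufa4 at 586 against 145 and 109 CPM. mt-Nd5 was at 4917 CPM in tumour, 3512 in myeloid, 5032 in T and 5234 in B cells, so that it was not lower in lymphocytes, whereas mt-Atp6 was at 14778, 8147, 11257 and 9786 CPM and mt-Co1 at 35298, 23085, 28886 and 25548 CPM. T and B cells in BTYNB had medians of 2149 and 1950 UMIs, and from 5115 to 8000 UMIs their nuclear sums were 14088 and 10357 CPM, against 13325 in myeloid and 18777 in tumour cells. At that depth, with only 65 T and 37 B cells, T cells were not below myeloid cells.

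The T and B cells of the combination could be set against those of BTYNB only with the difference in depth, 7500 and 8305.5 against 2149 and 1950 UMIs at the median. In cells taken by the T or B rule alone, whose tumour markers were also higher in the combination (493 against 221 CPM in T cells and 803 against 552 CPM in B cells), the nuclear median was 0.45 (0.40 to 0.57) in T and 0.51 (0.43 to 0.57) in B cells, with 65 of 89 and 74 of 92 members at least 0.25 higher, next to 34.4% and 32.3% of all genes. With the single class rule the medians were 0.60 and 0.44. In cells of at least 5115 UMIs, the smallest cell of the combination, the medians by the T or B rule alone were 0.02 and 0.05. This floor left 241 of 2481 T and 383 of 3475 B cells in BTYNB. With the floor and the single class rule the medians were 0.05 and −0.12. With bins of equal UMIs the medians were above 0 in both classes, at 0.24 in B cells. These settings changed both the depth and the cells kept, and the part of each was not tested. The mitochondrial medians were −0.01 and 0.07 by the T or B rule alone.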

How the data were processed

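Cells of 4 pooled ascites samples were captured with BD Rhapsody, and per the study's methods the authors removed dead cells, ran the BD Rhapsody analysis pipeline and filtered cells in Seurat with scDblFinder. The authors deposited whole-number UMI counts per gene and cell, not normalised, on mouse GRCm39; the cells each table holds and the strand setting of the counting were not given in the sources used here. Members, gene lists and comparisons were chosen with earlier results of these data known. From the counts, cells with at least 200 genes and at most 33% mitochondrial UMIs were kept (7834, 18283, 12019 and 7042 in control, BTYNB, anti-PD-1 and combination). Classes required at least 5 UMIs of Krt7, Krt8, Krt18, Krt19 and Wt1 without Ptprc (tumour), at least 3 of Lyz2 and Csf1r with at most 2 keratin UMIs (myeloid), at least 2 of Cd3d, Cd3e and Cd3g (T) or at least 3 of Cd79a and Cd79b (B). Doublets were not called for the reported values, and tables with the 5% of cells of highest scrublet score removed served as an alternative.

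UMIs were summed over the cells of a class and scaled to CPM of all UMIs of those cells. Ratios are log2 of CPM with a pseudocount of 1 CPM, for genes with at least 100 UMIs over the libraries compared. Levels have exact Poisson intervals, ratios have exact binomial intervals of the counts without the pseudocount, and medians have order-statistic intervals over genes, which are not replicates. With 1 library per group no p-value was computed. Genes named are the 13 mitochondrial genes, Sdha to Sdhd, the listed paralogues, the highest and lowest member of each complex with at least 1000 UMIs, and members past 0.5 in size, and others were chosen after their values were seen. In T and B cells, conditions were compared by medians and counts of members, and ratios of single genes served only to check the processing. Nuclear members can share reads with processed pseudogenes. Alternatives changed the mitochondrial limit, depth, scaling, averaging, doublets, class rules, Cd24a-high cells, pseudocount and filter. The steps were tested on simulated data. Python 3.11.15, numpy 2.4.6, scipy 1.17.1, pandas 2.3.3, scanpy 1.11.5 and matplotlib 3.10.9 were used.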

Additional observations from a re-analysis of the deposited data

Results flagged for a closer look

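In tumour cells, the median log2 ratio of the nuclear members differed in sign with the presence of the other agent. For BTYNB it was −0.09 without anti-PD-1 (BTYNB against control) and 0.13 with it (combination against anti-PD-1). For anti-PD-1 it was −0.11 without BTYNB (anti-PD-1 against control) and 0.12 with it (combination against BTYNB). For the mitochondrial members the median for anti-PD-1 was 0.11 without BTYNB and −0.10 with it; with bins of equal UMIs the first was −0.024 and the signs did not differ. Median-of-ratios scaling brought the nuclear −0.11 to −0.036 and the 0.13 to 0.065, with their signs as given. Each group was 1 pooled library, the 4 comparisons share libraries, and the difference was not tested.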

How the results depend on the processing

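No paired analysis was possible because each group has 1 library. Of 252 values of 20 medians under alternatives, 220 stayed within the interval of the reported median, 28 lay outside it and 4 changed sign; bins of equal UMIs, and the single class rule with the floor of 5115 UMIs, were chosen after seeing the data, and the cause of each change was not tested. In tumour cells, equal bins gave −0.17 for nuclear genes in BTYNB against control, −0.024 for mitochondrial genes in anti-PD-1 against control (changed sign), 0.27 for mitochondrial genes in combination against anti-PD-1 and 0.18 for nuclear genes in combination against BTYNB, also 0.18 as the mean over cells. Median-of-ratios scaling gave −0.036 (nuclear) and 0.18 (mitochondrial) in anti-PD-1 against control and 0.065 (nuclear) in combination against anti-PD-1, and without cells of 3 or more Cd24a UMIs the mitochondrial median in anti-PD-1 against control was 0.16. In myeloid cells, the floor gave −0.13 (mitochondrial, BTYNB against control), 0.091 (nuclear, anti-PD-1 against control), −0.22 (nuclear, combination against anti-PD-1), and 0.016 (nuclear) and 0.085 (mitochondrial, changed sign) in combination against BTYNB. Equal bins gave 0.17 and −0.24 for nuclear genes in anti-PD-1 against control and combination against anti-PD-1, and 0.024 for mitochondrial genes in combination against BTYNB (changed sign); at least 1000 UMIs gave 0.11 for nuclear genes in anti-PD-1 against control, and the mean over cells 0.12 (nuclear) and −0.23 (mitochondrial) in combination against BTYNB. In T cells the nuclear median was 0.023 with the floor, 0.73 as the mean over cells, 0.60 with the single rule, 0.16 in equal bins and 0.052 with single rule and floor, and the mitochondrial one −0.38 with the single rule. In B cells the nuclear median was 0.051 with the floor, 1.02 as the mean over cells, 0.24 in equal bins and −0.12 with single rule and floor (changed sign), and the mitochondrial one 0.18 as the mean over cells and 0.34 with single rule and floor. Of 143 ratios of named genes in tumour cells under alternatives (1857 values), 577 values lay outside the reported interval, and all 156 values of the 12 ratios past 0.5 in size had the reported sign. Of 138 in myeloid cells (1626 values), 260 lay outside, and 2 of 153 values of the 14 ratios past 0.5 changed sign, both of Ndufaf2 in combination against anti-PD-1, at −0.32 with the floor and −0.42 in equal bins. In T cells 4 values of ratios past 0.5 changed sign, for Cox7a2 −0.064 with the floor and −0.076 with single rule and floor, and with the latter Atp5g1 −0.11 and Cox6b1 −0.12, and in B cells 4, for Cox7a2 −0.010 with the floor and −0.27 with single rule and floor, and with the latter Cox6b1 −0.62 and Cox8a −0.073. Depth limits the myeloid values of control and anti-PD-1, with 1717824 and 1723473 UMIs in all, and the T cells of the combination, with 1371864.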
